A study of Homo sapiens with 12 samples.

Results

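Rituximab (R) is a chimeric IgG1 antibody against CD20, the B cell surface protein encoded by MS4A1, and TMD8 is a human diffuse large B cell lymphoma (DLBCL) line of the activated B cell-like type. The comparison described here is R with a human IgG1 isotype control in TMD8, measured by RNA-seq as raw read counts per gene. It rests on 4 of the 12 libraries of the series, chosen by their labels, and on the 14227 of 58884 genes in the count table that had enough counts to test. Cells carried the genotype label WT and received 20 µg/mL of either antibody for 4 h, and the remaining TMD8 libraries received ofatumumab (OF), another anti-CD20 antibody, at the same dose and for the same time. The U2932 line was treated with R, OF or isotype in the same way. Each condition had 2 libraries. They came from 2 cultures of the same line that were split and kept apart for a week before treatment, so that libraries with the same number share a culture. The replicates are cultures of 1 line and not separate patients, and the medium held heat-inactivated serum and no effector cells, so the values describe the direct response of the tumour cells.

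CD20 is a tetraspan membrane protein without a known natural ligand. Antibodies such as R gather it in lipid rafts, where it lies close to the B cell receptor (BCR) and to Src family kinases, and binding can raise calcium and activate MAPK signalling. B cell lymphomas of the activated type depend on continuous signals from the BCR and on NF-kB, a family of transcription factors that drives survival and inflammatory genes. The results are ordered from the target and surface receptors through signalling to metabolism, protein folding, the cell cycle and the innate antiviral genes.

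The 4 libraries held 17108683 and 17359177 counts for R and 18377047 and 27110612 for isotype. All 10 B cell markers and all 10 markers of activated B cell-like DLBCL were detected, with summed levels of 4084 to 5122 and 2849 to 3465 CPM, which are counts scaled to a common library total. Markers of germinal centre B cell-like DLBCL, at 280.6 to 362.4 CPM, were also present, led by SERPINA9 and LMO2. Markers of T and NK cells summed to 1.38 to 2.91 CPM, with CD3G, CD8B, TRBC1, GNLY and NCAM1 at 0 in all 4 libraries. Myeloid markers summed to 11.4 to 15.5 CPM and stromal and epithelial markers to 19.4 to 37.0 CPM, the highest in isotype replicate 2. Replicate 2 of isotype stood apart. Ribosomal protein genes made up 6.97% of its counts, against 11.6% in isotype replicate 1 and 11.1% and 10.8% with R, and the mitochondrial genes 3.99%, against 5.81%, 6.23% and 5.70%. OF replicate 2 was similar, at 7.70% and 3.73%. Counts of the 2 R libraries differed by 4.04 times the sampling noise and those of the 2 isotype libraries by 63.9 times (chi-square per degree of freedom). Their part in the results below was not tested beyond the values given without isotype replicate 2.

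Libraries were compared within their culture, in a model with the culture as a block fitted to the 6 TMD8 libraries. A gene was called where edgeR's quasi-likelihood test gave an adjusted p under 0.1 and the change was at least 1.5-fold. Levels of single genes are in TMM-normalized CPM, and errors are standard errors (SE). R raised 717 genes (5.04% of those tested) and lowered 848 (5.96%). Changes of at least 2-fold were found for 183 genes that rose and 320 that fell, and of at least 4-fold for 11 and 37. Both R libraries lay above both isotype libraries for 714 of the genes that rose, and below them for 818 of those that fell. Over all genes tested, 23.7% lay above and 24.1% below in this way. All 1565 called genes changed in the same direction in both cultures, against 63.0% of all genes, although a fit on these same cultures favours such genes. The change in culture 1 and the change in culture 2 had a Pearson r of 0.42 across genes, which share their libraries and are not independent replicates.

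The block sets how many genes pass. Without it, 57 genes were higher and 35 lower, or 0.647% of those tested, and all 92 were among the paired calls with the same direction. Log2 fold changes had a median SE of 0.17 with the block and 0.25 without it. Without isotype replicate 2, 544 genes rose and 442 fell, and 429 and 344 of these were among the calls above. Without R replicate 1, 1314 rose and 1703 fell. In all fits that left out 1 of the 4 libraries, 311 genes were called higher and 228 lower each time. Such a fit leaves 1 library with R or isotype, which is assumed to vary like the other TMD8 groups, OF included, so counts and calls without a library are given as a description. Scaling by library size alone moved the median of all genes by −0.14 on the log2 scale, and gave 419 higher and 1339 lower genes, or 23.8% higher against 45.8% in the fit above. The directions given below are relative to TMM scaling, and no list described below as mainly higher or mainly lower turned its median under library size scaling unless stated.

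**Figure D1:**
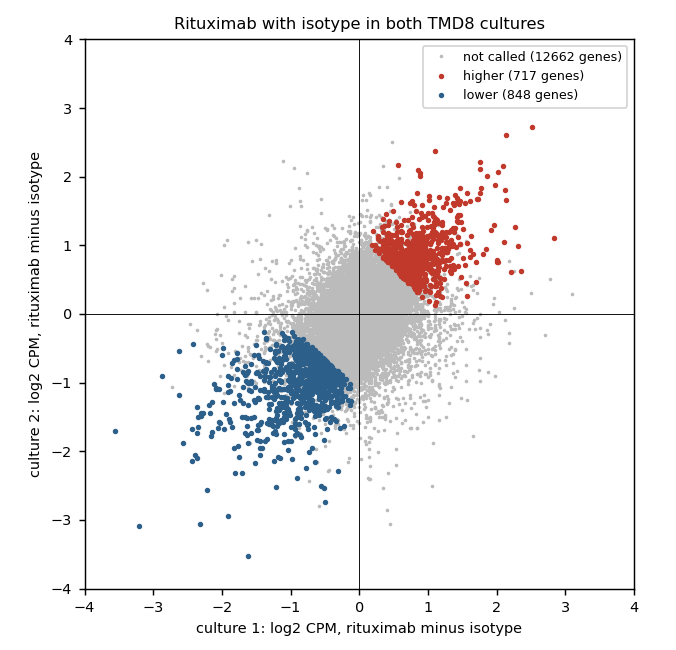
Each point is 1 of the 14227 genes tested, with the difference in log2 CPM between R and isotype in culture 1 (horizontal axis) and in culture 2 (vertical axis). Red points are the 717 genes called higher and blue points the 848 called lower, and all of them lie in the quadrants where both cultures changed in the same direction.

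GC content moved with the direction of change. The median GC content of the transcript was 44.3% in the genes that rose and 54.4% in those that fell, against 48.5% over all genes, and from the lowest to the highest decile of genes by GC content the median log2 change fell by 0.39. This span was −0.23 in culture 1 and −0.53 in culture 2. After a smooth trend on GC content was removed from each library, 669 genes were higher and 720 lower, and 549 and 618 of them were among the genes already called. Whether the trend lies in the cells or in the libraries was not tested.

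Leading genes were chosen by p-value among called genes with a mean of at least 5 CPM and with both R libraries beyond both isotype libraries, so that separation in them is given by the choice. The 12 genes that rose with the smallest p-values encoded signalling regulators, an antigen-presenting molecule and enzymes of sterol and fatty acid synthesis. RGS13, which switches off G-protein signalling from chemokine receptors in germinal centre B cells, stood at 175 and 144 CPM with R and at 30.3 and 21.7 CPM with isotype. The 2 R libraries lay well above the 2 isotype libraries. RGS13 (chromosome 1, 192636138 to 192660306, plus strand, GRCh38) rose 6.19-fold, or by 2.63 on the log2 scale (SE 0.14, adjusted p = 3.6e-04). SGK1, a kinase induced by growth factors and glucocorticoids, had 67.3 and 48.2 CPM with R and 15.7 and 10.7 CPM with isotype, a rise of 4.39-fold. CD1C, which presents lipid antigens to T cells, had 258 and 242 CPM with R and 58.5 and 39.5 CPM with isotype, a rise of 5.22-fold. In all 3 genes culture 1 was higher than culture 2 with both antibodies, and the change was slightly larger in culture 2. Of the others, those reported here are HMGCS1 and MSMO1 of cholesterol synthesis, FUT8, which adds core fucose to glycoproteins, ELOVL5, which elongates fatty acids, SPR of tetrahydrobiopterin synthesis, CDK5R1, an activator of the kinase CDK5, TMEM97, a sterol-regulated membrane protein, and CCNB1IP1, a ubiquitin ligase, with log2 fold changes of 1.42 to 1.93. FSTL5, a secreted follistatin-like protein, was added by the size of its change, at 1.97 on the log2 scale. All 12 were also called after the GC correction, and 10 without the block, where MSMO1 and CCNB1IP1 missed the limit with adjusted p-values of 0.102 and 0.104.

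The 12 genes that fell with the smallest p-values were led by SLFN5, a member of the interferon-inducible Schlafen family, with 24.7 and 27.3 CPM with R and 76.7 and 78.4 CPM with isotype. SLFN5 (chromosome 17, 35243036 to 35273655, plus strand) fell 2.98-fold (−1.58 on the log2 scale, SE 0.13, adjusted p = 0.00143). ZBTB43, a zinc finger protein, had 24.4 and 22.5 CPM with R and 72.9 and 64.4 CPM with isotype. The isotype libraries of both genes stood close together, although replicate 2 of isotype stood apart in its ribosomal and mitochondrial shares. CXCR5, the chemokine receptor that leads B cells into follicles, had 26.0 and 27.2 CPM with R and 71.2 and 98.7 CPM with isotype, a fall of 3.16-fold. CYP1A1, an enzyme induced through the aryl hydrocarbon receptor, had 19.2 and 27.9 CPM with R and 79.4 and 83.2 CPM with isotype, a fall of 3.49-fold. GRIN2D, a glutamate receptor subunit, fell by 2.83 on the log2 scale, but its 7.57 and 26.9 CPM in the isotype libraries differed widely. The others were MT-ND6, the NF-kB subunit RELB, the cannabinoid receptor CNR1, the transcription factor RUNX3, the zinc finger genes ZNF775 and ZNF426, and IBA57 of mitochondrial iron-sulfur assembly, with log2 fold changes between −2.33 and −1.21. KIF26B, an atypical kinesin (−2.09), and NAT16 (−1.99) were added by size. MT-ND6 lies on the other mitochondrial strand from most of its neighbours, and its value is uncertain because the strand setting of the counting was not given in the sources used here. All 12 were also called after the GC correction and 10 without the block, where GRIN2D and RUNX3 had adjusted p-values of 0.147 and 0.102.

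**Figure D2:**
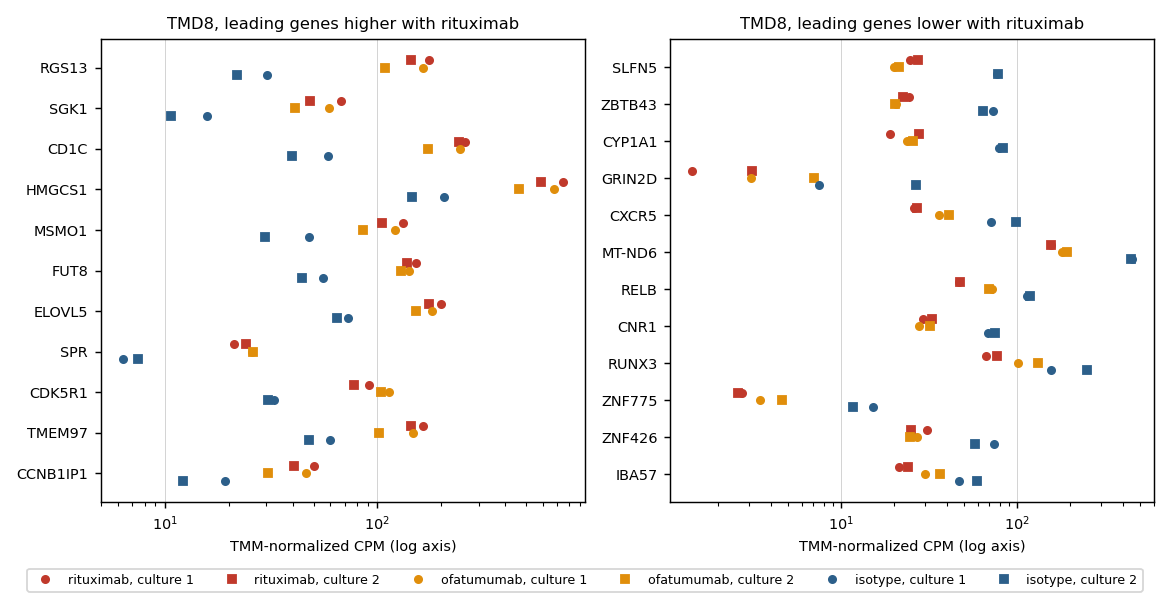
The plot gives the TMM-normalized CPM (horizontal log axis) of 11 of the 12 genes with the smallest p-values that rose (left) and of the 12 that fell (right), in every TMD8 library, with circles for culture 1 and squares for culture 2. Red R points are separated from blue isotype points in every gene, which was a condition for choosing the genes, and the OF points (orange) are drawn beside them.

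The target gene itself rose. MS4A1 (chromosome 11, 60455752 to 60470760, plus strand) had 2255 and 1951 CPM with R and 1297 and 891 CPM with isotype. Both R libraries lay above both isotype libraries, and the rise was 1.95-fold (0.97 on the log2 scale, SE 0.17, adjusted p = 0.0141), with 0.80 in culture 1 and 1.13 in culture 2. The unpaired fit gave an adjusted p of 0.188. With each library left out in turn the log2 fold change lay between 0.83 and 1.11, and the gene was not called without isotype replicate 2. Of 28 B cell surface antigens tested, 6 rose and 1 fell, with a median log2 fold change of 0.22 against −0.01 over all genes. CD1D (0.98), CD48 (0.91), a ligand of SLAM family receptors, and CD72 (0.88), an inhibitory coreceptor of the BCR, were among those that rose. Of 8 regulators of complement and phagocytosis tested, CD46 (0.75) and CD59 (0.62), which protect cells from complement, rose, and SLAMF7, a target of elotuzumab, fell by 1.07. CD59 was not called after the GC correction, without R replicate 2 or without isotype replicate 2.

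Genes of the BCR pathway changed little. Of 26 tested, 2 rose (7.69%) and none fell, with a median of 0.09. They were MALT1 (0.63), the protease that joins the BCR to NF-kB, and PTPN6 (0.73), the phosphatase SHP-1 that restrains BCR signals, of which only PTPN6 was also called after the GC correction. MALT1 was not called without isotype replicate 2, nor PTPN6 without isotype replicate 1. PLCG2, the phospholipase that gives the calcium signal, had a log2 fold change of 0.40 that did not pass (adjusted p = 0.142). Of 25 calcium and NFAT genes, 2 were higher and 2 lower. KCNN4, a calcium-activated potassium channel, rose by 1.13, while KCNMB4 fell by 0.92 and NFATC2 by 0.99. The NFATC2 change was uneven, at −0.42 in culture 1 and −1.50 in culture 2, and it was not called without R replicate 2 or isotype replicate 2.

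NF-kB genes were mostly lower. Of 24 subunits, regulators and feedback genes tested, 7 fell and 1 rose, and their median was −0.49. It was −0.25 in culture 1 and −0.62 in culture 2, and −0.34 without isotype replicate 2. RELB (chromosome 19, 45001430 to 45038198, plus strand), a subunit of the non-canonical pathway, had 46.8 and 47.9 CPM with R and 114 and 119 CPM with isotype. The 2 values of each antibody nearly coincided, and RELB fell 2.46-fold (SE 0.12 on the log2 scale, adjusted p = 0.00203). NFKB2, the partner of RELB, fell by 1.02, NFKBID, which encodes a nuclear IkB protein, by 1.19, and TRAF1, an adaptor of TNF receptors, by 0.96. RELB, NFKBID and TRAF1 were also called without the block. The count of lower members was 12 without R replicate 1, 11 without isotype replicate 1, 5 without isotype replicate 2, and 12 under library size scaling. After the GC correction, 6 members were lower.

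MAPK feedback inhibitors, which dampen ERK, JNK and p38, gave 4 higher and 1 lower of 10. DUSP5, a nuclear phosphatase of ERK, had 159 and 193 CPM with R and 93.5 and 95.6 CPM with isotype (log2 fold change 0.89, adjusted p = 0.00771). DUSP2 rose by 0.79, DUSP7 by 0.62 and SPRED1 by 0.71, of which SPRED1 rose by 1.17 in culture 1 and 0.27 in culture 2. SPRED1 was not called after the GC correction, and neither SPRED1 nor DUSP7 was called without R replicate 1 or isotype replicate 1. DUSP7 was also not called without isotype replicate 2 or either OF library. The list is unstable, with between 2 and 5 higher members when 1 of the 4 libraries was left out, and the median was −0.11 without isotype replicate 1 against 0.24 with all libraries. Of 24 kinases and partners of the JNK and p38 cascade, none rose, 2 fell and the median was 0.02. GADD45G, an activator of that cascade at 1.24 to 5.59 CPM, fell by 1.47. Immediate early factors went both ways, with 3 higher and 4 lower of 23. MYC had 256 and 225 CPM with R and 125 and 139 CPM with isotype, a rise of 1.82-fold. KLF6 rose by 0.84, JUN, a subunit of AP-1, fell by 0.66 and the antiproliferative gene BTG1 by 0.70. JUN was not called after the GC correction, without R replicate 2 or without isotype replicate 2, and BTG1 was not called without isotype replicate 1.

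Genes for regulators of G-protein signalling rose as a group in number. Of 15 tested, 6 rose and 1 fell (median 0.23), and the count of higher members lay between 5 and 7 when 1 of the 4 libraries was left out and was 2 without the block. Beside RGS13, RGS2 rose by 1.14, GRK6, a kinase that desensitizes receptors, by 0.98 and RGS14 by 0.97. Chemokines, cytokines and their receptors were split, with 7 higher and 7 lower of 28 (25% each, against 5.04% and 5.96% over all genes). IL16, a chemoattractant of CD4 cells, had 201 CPM in both R libraries and 90.1 and 80.2 CPM with isotype, a rise of 2.37-fold. CCR1, a receptor for CCL3 and CCL5, rose by 2.13 from the low levels of 1.32 and 1.30 CPM to 5.68 and 5.80 CPM. GPR183, which guides B cells to the edge of follicles, rose by 0.91, while CXCR5 fell as given above. Without isotype replicate 2 the lower members numbered 3, and after the GC correction also 3. Among SOCS, PIM and STAT genes, 3 of 21 rose (14.3%) and 2 fell (9.52%), shares that rest on few genes. Under library size scaling 1 member was higher and 2 were lower. SOCS3, a feedback inhibitor of cytokine receptors, rose by 0.93, JAK1 by 0.71 and SOCS5 by 0.63, and STAT5A fell by 1.03 at 2.31 to 5.95 CPM. SOCS5 was not called after the GC correction or without isotype replicate 2. STAT5A was not called without R replicate 2 or isotype replicate 2, and its log2 fold change lay between −1.35 and −0.65 with each library left out in turn. After the GC correction, 2 members of the list were higher and 1 was lower.

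Cholesterol synthesis was the clearest metabolic group. The pathway builds cholesterol from acetyl-CoA, and its genes are switched on by the transcription factor SREBP2. Of 24 genes of synthesis and uptake tested, 11 rose (45.8%) and none fell, with a median of 0.53. HMGCS1, which makes HMG-CoA, had 748 and 587 CPM with R and 207 and 146 CPM with isotype, a rise of 3.82-fold (SE 0.15 on the log2 scale, adjusted p = 0.00143). Each R library was more than 2-fold above each isotype library. MSMO1 and SC5D, later enzymes that act on sterols, rose by 1.66 and 1.14. The count was 12 after the GC correction and between 8 and 13 when 1 of the 4 libraries was left out. It was 2 without the block. Of 16 genes of cholesterol efflux and fatty acid synthesis, 5 rose and 2 fell. ELOVL5 (1.44), ELOVL6 (0.91) and ACSL1 (0.68), which elongate or activate fatty acids, rose, although ACSL1 was not called without R replicate 1 or isotype replicate 1. ABCG1, a cholesterol exporter, fell by 2.60 (SE 0.51), from 1.26 and 1.37 CPM with isotype to 0.125 and 0.296 CPM with R. These levels are low, and ABCG1 was not called by DESeq2 with or without the block, nor by edgeR without it.

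Chaperones of the endoplasmic reticulum (ER) and genes of the unfolded protein response rose too. Of 30 tested, 11 rose (36.7%), none fell and the median was 0.50. HSPA5, the ER chaperone BiP, had 752 and 732 CPM with R and 271 and 268 CPM with isotype. The replicates differed by far less than the antibodies, and HSPA5 rose 2.75-fold (SE 0.15 on the log2 scale, adjusted p = 0.00237). XBP1, the factor that drives ER expansion and plasma cell secretion, had 53.6 and 45.4 CPM with R and 25.4 and 16.8 CPM with isotype, a rise of 2.39-fold. DNAJB11 (1.02) and DNAJC3 (0.99), cochaperones of BiP, rose as well. HSPA5 and DNAJC3 were called without the block. Between 7 members, without isotype replicate 2, and 14, without R replicate 1, were higher when 1 of the 4 libraries was left out, and 14 after the GC correction. Of 22 cytosolic and mitochondrial chaperones, 7 rose, none fell and the median was 0.41. They included CHORDC1 (0.91) and HSPA4L (0.89), the only members also called when the blocked fit used just the 4 libraries compared, without OF. This count was 0 without the block, 3 without isotype replicate 2, 3 without R replicate 2, 4 without isotype replicate 1, 11 without R replicate 1 and 3 under library size scaling. Genes that respond to amino acid shortage through ATF4 were split, with 3 higher and 3 lower of 25. The amino acid carrier SLC38A2 (0.94), the mTOR inhibitor DDIT4 (0.99) and the folate enzyme MTHFD2 (0.90) rose, and ATF5 fell by 0.94.

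RefSeq promoter windows of build GRCh38.p14 were searched for the ER, interferon and cholesterol synthesis lists. They ran from 250 bases before to 50 after each annotated start. In the cholesterol list the motif CACNCCAC was found in 4 of 19 genes with a window (21.1%), against 7.92% of the genes tested. Of the 7 called cholesterol genes with a window, 2 held it. The ER stress element, written here as CCAAT, 9 bases and CCACG, was searched on both strands. It was found in 0.0769% of the 35116 windows, and in at least 1 window of 8 of the 27 ER genes that had one (29.6%), against 0.158% of the genes tested. Stretches of the HSPA5 and XBP1 promoters are shown because the 2 genes were the leading members of the list, with the match in capitals. They lie at chr9:125241361-125241439 (HSPA5) and chr22:28800573-28800651 (XBP1), both on the minus strand.
HSPA5: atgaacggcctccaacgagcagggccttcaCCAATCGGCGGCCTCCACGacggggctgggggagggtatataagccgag
XBP1: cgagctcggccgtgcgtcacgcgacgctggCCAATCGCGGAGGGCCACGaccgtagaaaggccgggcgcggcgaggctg

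Among cell cycle genes, those of G1 held most of the calls. Of 20 G1 cyclins, CDK partners and CDK inhibitors tested, 7 rose and 1 fell, with a median of 0.36. CCNE2, a cyclin that starts S phase, had 44.0 and 38.5 CPM with R and 17.6 and 13.4 CPM with isotype, a rise of 2.68-fold. CCNI rose by 1.37 and CDKN2C, the CDK4 and CDK6 inhibitor p18, by 1.14, so that a cyclin that starts S phase and a CDK inhibitor rose together. CCNI, CDKN2C, CCNE2 and CDK5R1 were also called without the block. Between 6 and 8 members were higher when 1 of the 4 libraries was left out. Later phases changed little. Of 32 DNA replication genes, EXO1 (1.16), a repair exonuclease, was the only one called, and of 28 genes of G2 and mitosis, only BUB1B (0.63), which was not called after the GC correction. These shares are at or below the background.

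Replication-dependent histones fell. Of 26 tested, none rose, 9 fell (34.6%) and the median was −0.63. H2BC9 fell by 1.10, H2BC8 by 0.96, H2BC18 by 0.88 and H2BC21 by 0.79. None of the 9 was called without the block, and between 6 and 13 members were lower when 1 of the 4 libraries was left out. The median was −0.70 in culture 1 and −0.11 in culture 2. Histone genes share long stretches of sequence, so counts of single members are uncertain. Their main transcripts also lack a poly(A) tail, and how the libraries selected mRNA was not given in the sources used here.

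Genes of the ribosome and the mitochondrion differed between the cultures. Of 76 cytosolic ribosomal protein genes, 2 rose, RPL22 (1.39) and RPL11 (0.63). The median was 0.38, but it was −0.04 in culture 1 and 0.81 in culture 2, where isotype replicate 2 is the control. Without R replicate 1, 67 members were higher, and without isotype replicate 2, 1. RPL11 was not called without R replicate 2, isotype replicate 2 or either OF library. RPL22 was high in both cultures, with 142 and 118 CPM with R and 60.7 and 40.0 CPM with isotype. Of 13 mitochondrially encoded subunits, 6 rose and MT-ND6 fell. MT-ND4L rose by 0.94, MT-CO2 by 0.83 and MT-CYB by 0.79, with a list median of 0.39 in culture 1 and 0.96 in culture 2. Without isotype replicate 2, 1 member was higher, and without R replicate 2 also 1. MT-CO2 and MT-CYB were not called in either of these fits or without either OF library, nor MT-CYB without isotype replicate 1. None of 34 nuclear genes of the respiratory chain was called by edgeR, at a median of 0.16.

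Several smaller groups bear on survival, metabolism and antigen presentation. Of 29 genes of the BCL2 family, caspases and death receptors, 4 rose and 1 fell. BCL2L1, which encodes the survival protein BCL-XL, had 36.1 and 35.7 CPM with R and 72.9 and 75.1 CPM with isotype. The replicates of each antibody nearly coincided, and BCL2L1 fell 2.06-fold (SE 0.12 on the log2 scale, adjusted p = 0.0033). The proapoptotic genes BID (0.88) and BIK (0.80) rose, as did CASP8 (0.59), which was not called after the GC correction. Without isotype replicate 2, 1 member was higher, and BID, BIK and CASP8 were not called. CASP8 was also not called without R replicate 2. Of 29 glycolysis and hypoxia genes, 4 rose and 1 fell, with the glucose carrier SLC2A3 at 1.61 and VEGFA at 0.83. Of 18 FOXO target and quiescence genes, 3 rose and 1 fell, with CCNG2 at 0.97 and KLHL24 at 0.81. Of 19 antigen presentation genes, 4 rose and none fell, among them HLA-DRA (0.84), HLA-DPB1 (0.77) and their activator CIITA (0.67). HLA-DRA was not called without R replicate 2, HLA-DPB1 without R replicate 2 or isotype replicate 2, and CIITA without R replicate 1 or isotype replicate 1. This count of higher members was 1 without R replicate 2 and 2 without isotype replicate 2 or under library size scaling, and reads of HLA genes can be shared between members. Of 28 lysosomal genes, 2 rose and 3 fell. MPEG1, a pore-forming protein of phagosomes, had 1029 CPM in both R libraries and 472 and 458 CPM with isotype, and TFE3, a factor that switches on lysosomal genes, fell by 1.35. Of 7 aryl hydrocarbon receptor genes, CYP1A1 and TIPARP (−0.88) fell and none rose. PRDM1, the plasma cell factor BLIMP1, rose by 0.80, with 1.12 in culture 1 and 0.46 in culture 2. PRDM1 was not called without R replicate 1 or isotype replicate 1, and it and XBP1 were the 2 genes called among 23 germinal centre and plasma cell factors. Of 17 NRF2 and antioxidant genes 2 were higher (11.8%), and of 13 small nucleolar RNA host genes also 2 (15.4%), shares that rest on 2 genes each. Shares near the background were found for ribosome biogenesis (1 higher and 1 lower of 26), splicing factors (1 higher of 24) and nuclear RNAs (0 of 5). Calcium and NFAT genes (8% higher and 8% lower) and lysosomal genes (7.14% and 10.7%) were not far above the background of 5.04% and 5.96%. Nor were germinal centre and plasma cell factors (8.7% and 0%) or the JNK and p38 cascade (0% and 8.33%). Members named from these lists are given as single genes.

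Of the lists described here, interferon-stimulated genes had the largest share of lower members. These genes are induced by type I interferon through JAK-STAT signalling and encode sensors and effectors of antiviral defence. Of 33 interferon-stimulated and Schlafen genes tested, 18 fell (54.5%) and 1 rose, with a median of −0.70. IFIH1, the sensor of double-stranded RNA also known as MDA5, had 52.5 and 49.5 CPM with R and 117 and 106 CPM with isotype. Both isotype libraries lay above both R libraries, and IFIH1 fell 2.18-fold (SE 0.13 on the log2 scale, adjusted p = 0.0033). OASL, an antiviral protein related to the OAS enzymes, had 6.50 and 8.35 CPM with R and 22.2 and 19.1 CPM with isotype, a fall of 2.78-fold. IRF7, which amplifies interferon production, fell by 1.06. SLFN5, IFIH1 and OASL were the 3 members also called without the block. The count of lower members was 18 without isotype replicate 2 and after the GC correction, and 10 without isotype replicate 1. The median was −0.80 in culture 1 and −0.37 in culture 2.

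The element bound by interferon-activated factors was searched in the same windows as GAAA, 2 bases and GAAA on both strands. It was found in 3.57% of all windows, in 4.29% of the tested genes that had a window, and in 17 of the 25 members with a window (68.0%). Of the 13 called members with a window, 11 held it. The stretches below are from IFIH1, the leading member of the list with a window, and from IFIT1, chosen after its sequence was read because it has a pair of neighbouring matches. They lie at chr2:162318666-162318873 on the minus strand (IFIH1) and chr10:89392477-89392559 on the plus strand (IFIT1), with matches in capitals. IFIT1 itself fell by 0.86 on the log2 scale, and was not called without R replicate 1 or isotype replicate 1. A match in a window is a description of sequence and not a bound site.
IFIH1: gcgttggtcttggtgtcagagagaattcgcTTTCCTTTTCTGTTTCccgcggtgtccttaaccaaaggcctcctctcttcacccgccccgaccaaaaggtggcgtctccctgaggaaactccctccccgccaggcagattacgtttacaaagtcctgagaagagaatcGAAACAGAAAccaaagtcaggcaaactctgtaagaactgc
IFIT1: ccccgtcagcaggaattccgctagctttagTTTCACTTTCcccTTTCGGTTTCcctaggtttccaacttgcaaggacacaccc

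**Figure D3:**
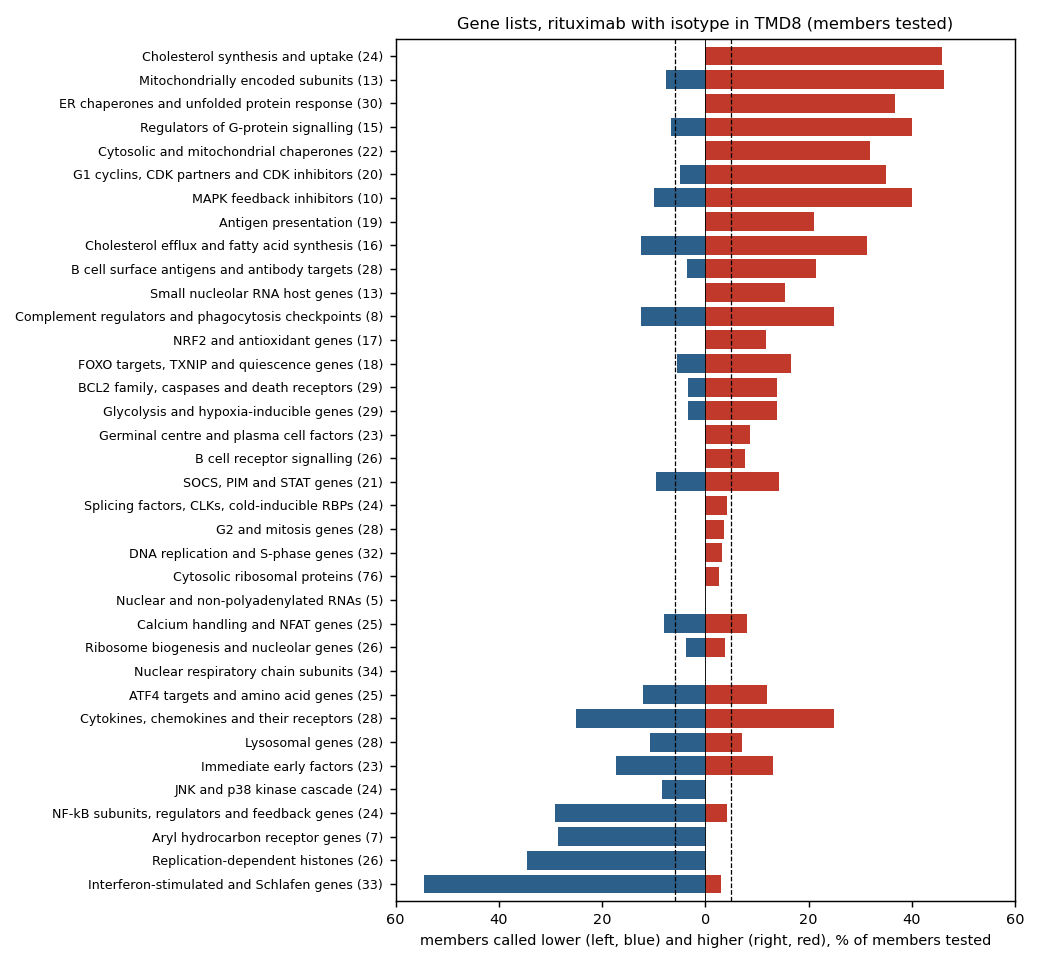
Bars give the share of each list's tested members (number in brackets) called higher (red, right) and lower (blue, left) with R in TMD8, in percent. Dashed lines mark the background over all genes, 5.04% higher and 5.96% lower, and the mitochondrial (46.2%) and cholesterol (45.8%) lists reach farthest to the right while the interferon list (54.5%) reaches farthest to the left.

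OF was compared with the same isotype libraries, so its values share their controls with those of R and are given only side by side. The median log2 change of the genes that R raised was 0.81 with R and 0.65 with OF, and that of the genes that R lowered was −0.87 with R and −0.62 with OF. RGS13 changed by 2.63 with R and 2.38 with OF, HMGCS1 by 1.93 and 1.70, HSPA5 by 1.46 and 1.53, and SLFN5 by −1.58 and −1.89. All 24 leading genes were also called with OF in the same direction. For RELB the values were −1.30 and −0.72, and for CXCR5 −1.66 and −1.12. Tested directly, no gene differed between R and OF (0%; edgeR, smallest adjusted p = 0.269), while 2492 genes had an unadjusted p-value under 0.05. DESeq2 with the same block called 50 genes, with 1522 under that limit. A p-value that misses the limit does not show that the antibodies act alike.

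The same treatment of U2932 shows which of these changes were shared between the lines. Of the 717 genes that rose in TMD8, 596 had a positive change in U2932, 196 were called higher there and 3 lower. Of the 848 that fell, 643 had a negative change, 147 were called lower and 8 higher. Over the 14227 genes from which these were chosen, 639 were called higher in U2932 and 516 lower, and the median change there was −0.003. U2932 called 4.18% of 16187 genes higher and 3.81% lower. The median change of the genes raised in TMD8 was 0.81 in TMD8 and 0.36 in U2932, and of those lowered −0.87 and −0.29. A smaller median in U2932 is built into the choice of genes by their change in TMD8. Across the 14227 genes tested in both lines the changes had a Pearson r of 0.26 and a Spearman rho of 0.35, with no shared libraries.

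The difference between the lines was then tested with an interaction over all 12 libraries, with the cultures as blocks within each line. Of the 1565 genes called in TMD8, 381 passed an adjusted p-value of 0.1. A larger share among them is built into their choice, because it used libraries that also enter this test. Over all genes, 978 of 16187 passed (6.04%). Fits without R replicate 1 or R replicate 2 gave 3646 and 3077, fits without 1 isotype library 653 and 1139, the GC correction 504 and the fit without blocks 52. The lists were divided. All 12 leading genes that rose in TMD8 were called higher in U2932 too, and 6 of the 12 leading genes that fell were called lower there. Cholesterol genes rose in both lines, with 12 of 24 called higher in U2932, a median of 0.60 there and 4 members whose changes differed. Histones fell in both lines, with 20 of 26 called lower in U2932, a median of −1.08 there and 7 members whose changes differed. Cytosolic and mitochondrial chaperones rose in both lines, with 13 of 22 called higher in U2932, a median of 0.76 there and 4 members that differed. Of the 33 interferon-stimulated genes, none was called lower in U2932 and 4 were called higher, at a median of 0.18, and 15 members differed between the lines. ER genes had 1 higher and 1 lower member of 30 in U2932, at a median of 0.08, and 13 members differed. NF-kB genes had 1 lower member in U2932, at a median of −0.13, and 5 differed.

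Single genes show the size of these differences. HSPA5 rose by 1.46 in TMD8 and changed by 0.23 in U2932, a difference of 1.22 (adjusted p = 0.00273 from edgeR's interaction test). XBP1 changed by 1.26 and −0.21, IFIH1 by −1.13 and 0.17, RELB by −1.30 and −0.05, and CXCR5 by −1.66 and −0.31. TRIM56, a ubiquitin ligase of antiviral signalling, changed by −1.30 and 0.10, and GPER1, a G-protein-coupled oestrogen receptor, by −1.20 and 0.44. UGDH, which makes UDP-glucuronate, changed by 1.18 and −0.07. DENND3 and KDM7A moved in opposite directions, and both changes were called in each line. The TMD8 change of DENND3 was not called without R replicate 1, without isotype replicate 1 or without the block, and it lay between 0.43 and 1.04 with each library left out in turn. DENND3, an exchange factor for Rab12, changed by 0.73 in TMD8 and −3.12 in U2932, and KDM7A, a histone demethylase, by 1.10 and −1.45. CD1C (2.38 and 2.63) and SPR (1.71 and 1.73) had changes of like size, with adjusted interaction p-values of 0.635 and 1.00. The blocked fits of the interaction use 2 cultures per line, so the spread of the changes between cultures is known poorly.

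**Figure D4:**
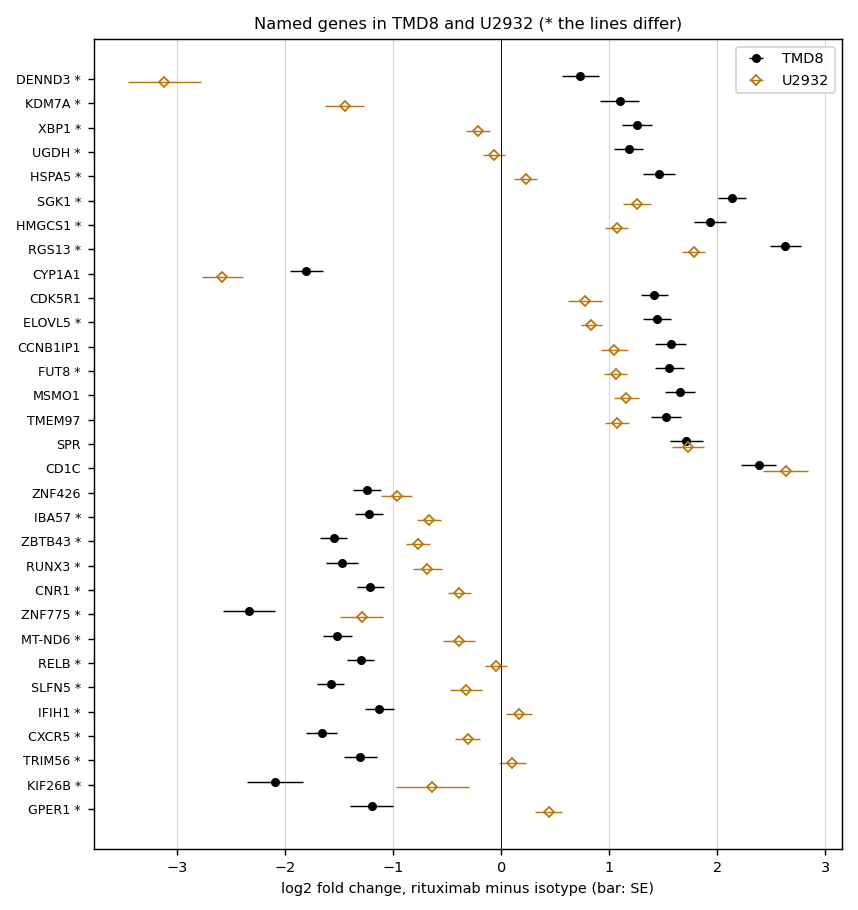
Points give the log2 fold change of R over isotype in TMD8 (black circles) and U2932 (open diamonds) for 31 named genes, with bars of 1 standard error from the fits with culture as a block. Stars mark genes whose change differed between the lines at an adjusted p-value under 0.1, and DENND3 and KDM7A lie on opposite sides of 0 in the 2 lines.

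**Figure D5:**
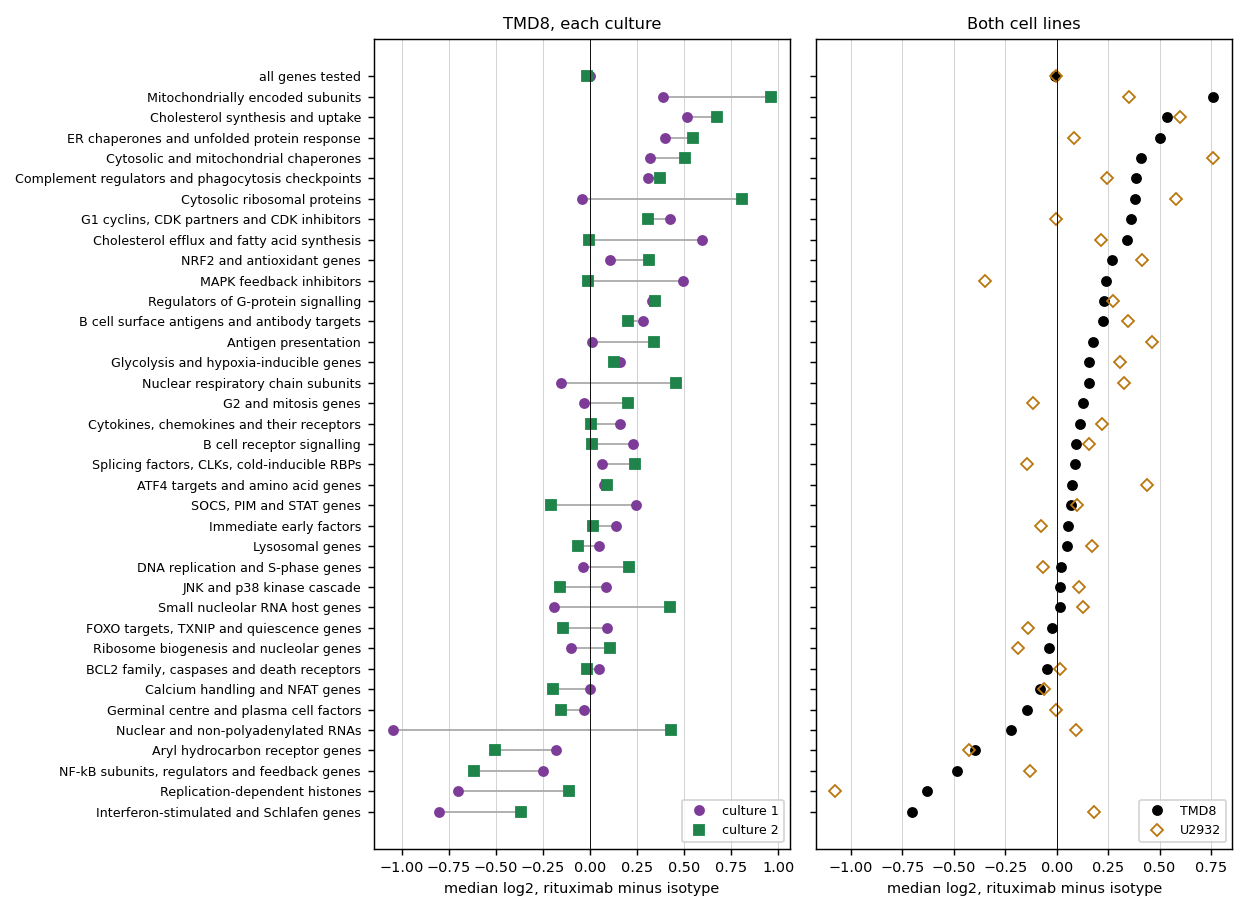
Points give the median log2 change of R over isotype for each gene list, in the 2 TMD8 cultures (left) and in TMD8 and U2932 (right). Ribosomal protein genes have medians of −0.04 and 0.81 in the 2 cultures, and the interferon list lies at −0.70 in TMD8 and 0.18 in U2932.

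Among the genes that the study names for R and OF in TMD8, IL4I1, CTSD, TGFB1 and C8orf82 were called lower with R against isotype. DTX2, which the study names for U2932, was also called lower in TMD8. IL4I1, an amino acid oxidase, fell by 0.78, CTSD, a lysosomal protease, by 0.63 and TGFB1 by 0.62, and their values with OF against isotype were −0.11, 0.18 and 0.24. CTSD and TGFB1 were not called after the GC correction or without isotype replicate 2. CTSD was also not called without either OF library, nor TGFB1 without R replicate 2. The genes named for TMD8 were chosen by the study on the same libraries, so their values are no independent evidence of a direction.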

How the data were processed

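RNA was sequenced from 12 libraries of TMD8 and U2932 treated with R, OF or isotype. Per the labels, reads were trimmed with Trim Galore 0.6.0 and aligned to GRCh38 with STAR 2.7.0e, and the authors deposited raw counts of reads per gene, without normalization or a filter. The annotation release and the strand setting are not given in the sources used here. All 12 columns were matched to libraries by name, with 0 left out, and 0 lines without a gene.

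The 6 TMD8 libraries were fitted with edgeR 4.0.16 in R 4.3.3 (filterByExpr at 10 counts, TMM, quasi-likelihood test, Benjamini-Hochberg adjustment), with 1 mean per antibody and the replicate number as a block. The pairing comes from the cultures, split before treatment. Deviations of same-numbered libraries from their group means correlated at 0.23 (R and isotype), 0.22 (R and OF) and 0.69 (OF and isotype). With the block, p-values measure only how the antibody differences varied between 2 cultures of 1 line. That spread came from all 6 TMD8 libraries, OF included, with 2 residual degrees of freedom. The limit of 0.1 on the adjusted p-value is the one the study states for R against OF in TMD8, and its use for R against isotype and for the interaction was a choice made here. No exact permutation test of 2 against 2 libraries could pass 0.05. The interaction was fitted to all 12 libraries. Log2 CPM of each culture had a prior count of 2. Positions, GC content and length came from GENCODE 29. Gene names came from a separate list of symbols, with GENCODE 29 used where it held none. Figures were drawn with matplotlib 3.10.9 in Python 3.11.15.

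The comparison and the gene lists were chosen with earlier results of these data known. Genes named are the 12 with the smallest p-values and the 5 largest changes in each direction (both R libraries beyond both isotype libraries, at least 5 CPM on average), MS4A1, up to 4 members per list by p-value, genes the study names, and the 5 with the smallest interaction p-values in each direction. IFIT1 and the markers stand outside this rule, and a few genes that meet it are not reported here. Alternatives were no block, DESeq2 1.42.0, other scaling, filters and limits, the 4 libraries compared or all 12, corrections of a smooth trend (lowess, span 0.3) on GC content or length, and fits without each library. On simulated data for this comparison, with 200 of 13934 genes changed 2-fold and an effect of culture, edgeR with the block called 99.5% of the changed genes, and 3.86% of its calls were false. Without the block it called 28.5%, with 0% false. The simulation gave same-numbered libraries the same culture effect in full, and every gene the same spread. The deposited libraries share their culture unevenly, as the correlations above show, so these rates do not carry over to the calls reported here.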

Additional observations from a re-analysis of the deposited data

Results flagged for a closer look

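Of the 34 reported genes named by p-value, size of change or difference between the lines, 23 changed by different amounts in TMD8 and U2932 (edgeR's interaction test, adjusted p-values of 9.2e-04 to 0.0944). Values here are the log2 change with R over isotype in TMD8 minus that in U2932. The change was larger in TMD8 for the metabolic and signalling genes RGS13 (0.84), SGK1 (0.87), HMGCS1 (0.86), FUT8 (0.49) and ELOVL5 (0.60), which rose in both lines. It was higher in TMD8 for the ER genes HSPA5 (1.22) and XBP1 (1.46), for UGDH (1.24), and for DENND3 (3.84) and KDM7A (2.54), which fell in U2932. It was lower in TMD8 for the interferon and antiviral genes SLFN5 (−1.26), IFIH1 (−1.30) and TRIM56 (−1.41), for the receptors CXCR5 (−1.36), CNR1 (−0.83) and GPER1 (−1.64), and for RELB (−1.26). It was also lower for ZBTB43 (−0.79), RUNX3 (−0.80), ZNF775 (−1.05), IBA57 (−0.56), KIF26B (−1.47) and MT-ND6 (−1.14), the last with an uncertain strand. The 10 genes chosen for their difference between the lines, DENND3, KDM7A, XBP1, HSPA5, UGDH, RELB, IFIH1, GPER1, TRIM56 and CXCR5, had to pass this test, and their values are a description. The others were chosen by p-value or size of change in the same TMD8 libraries, which favours a larger change in TMD8. Their values are a description too. Over all genes tested for the interaction, 978 of 16187 passed (6.04%).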

How the results depend on the processing

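Of 115 called genes named in the text, C8orf82 and DTX2 not included, 39 were also called without the replicate block and 76 were not. Over all alternatives they kept their direction, and in the fits that left out 1 library 635 of 690 gene values stayed past the limits. The counts of genes higher and lower with R were 57 and 35 without the block, 14 and 12 without it on the 4 libraries compared, and 389 and 313 in DESeq2 without the block. Library size scaling gave 419 and 1339. A limit of 0.05 on the adjusted p-value gave 581 and 558, no limit on the fold change 1279 and 1242, and a 2-fold limit 183 and 320. Fits that left out 1 library ranged from 544 to 1314 higher genes and from 442 to 1703 lower genes. DESeq2 with the block gave 637 and 569, and corrections for GC content or length, RLE and upper-quartile factors, other filters, the 4 libraries with the block and all 12 libraries stayed within 1.5 times of the main counts. Between R and OF, DESeq2 called 50 genes and edgeR none under the alternatives run. The interaction count was 52 without the block, 504 after the GC correction, 417 at an adjusted p-value under 0.05, and 653 to 3646 in fits that left out 1 library. Causes of these shifts were not tested. List counts under other settings were chosen after seeing the data. Depth limits the genes at a few CPM, such as ABCG1, CCR1 and GADD45G, and the spread of the changes between cultures rests on 2 cultures.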
